A study of Mus musculus with 5 samples.

Results

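Distal peaks with an AP-1 site were collected from 5 lists of IRF4 and IRF8 binding in mouse B cells, obtained by chromatin immunoprecipitation followed by sequencing (ChIP-seq). A peak was taken when its centre lay over 1000 bp from every transcription start site (TSS) of a protein-coding gene and when the 7 bases TGACTCA or TGAGTCA, which are reverse complements of each other, stood within 100 bp of the centre. Peaks that also held an ETS-IRF composite element there (GGAA, a spacer of 2 bases, and GAAA, on either strand) were left out. The rule found 702 of the 5590 deposited intervals, at 533 separate places in the genome. The IRF4 72 h list held 138 of its 898, the IRF4 48 h list 390 of 1573, the IRF8 germinal centre (GC) list 87 of 1826, the IRF8 72 h list 65 of 1059 and the IRF8 48 h list 22 of 234. These are called AP-1 peaks here; the other 3963 distal intervals with a complete sequence window served for comparison.

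All samples came from wild-type C57BL/6 mice. Naive splenic B cells were activated in culture with LPS at 10 μg/ml, and IRF4 (antibody M-17) and IRF8 (antibody C-19) were each mapped at 72 h and 48 h of culture. A further IRF8 library, made with antibody C-19, came from GC B cells sorted 13 days after immunisation with NP-KLH and frozen without culture. Each group was 1 library, so no value has a replicate check and every test compares lists or libraries, not conditions. The 4 LPS libraries held 3065426 to 4375858 tags, of which 0.18% to 0.82% lay in peaks per the file headers, and the GC list held positions without any signal.

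AP-1 is a family of dimers of leucine zipper proteins, among them JUN, FOS and BATF, that bind this short palindromic site. IRF4 and IRF8 bind GAAA sites weakly by themselves, and in lymphocytes they bind DNA together with a partner: with PU.1 or SPIB at ETS-IRF elements, and with BATF and JUN at AP-1-IRF composite elements (AICE). These elements come in 2 known arrangements, one with GAAA directly before the AP-1 core (AICE1) and one with TTTC, which is GAAA on the other strand, 4 bases before it (AICE2).

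Sequences of single AP-1 peaks show how the GAAA site stands to the core. Each is 47 bases of the mm9 genome around a core, 5′ to 3′, with the coordinates of the printed bases, and capitals mark the core and any GAAA or TTTC in one of the arrangements described. Each peak carries the name of the protein-coding gene whose TSS is nearest. The first set holds AICE1, with GAAA joined to the core.
Enpp6, chr8:48026829-48026875, plus strand: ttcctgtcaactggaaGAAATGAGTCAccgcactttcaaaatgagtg
Zmynd11, chr13:9766726-9766772, minus strand: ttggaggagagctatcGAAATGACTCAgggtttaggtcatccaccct
Nab1, chr1:52476413-52476459, plus strand: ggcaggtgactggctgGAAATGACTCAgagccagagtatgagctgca
Ccr7, chr11:99011925-99011971, minus strand: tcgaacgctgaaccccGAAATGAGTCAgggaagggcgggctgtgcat
The second set holds AICE2. The Kif3c peak has it on both sides of 1 core, and the Has3 peak has AICE1 on one side and AICE2 on the other.
Gpr15, chr16:58697105-58697151, minus strand: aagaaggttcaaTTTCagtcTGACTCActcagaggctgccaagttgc
Kif3c, chr12:3339037-3339083, plus strand: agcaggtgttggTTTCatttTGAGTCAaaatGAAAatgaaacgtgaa
Cd83, chr13:43856675-43856721, minus strand: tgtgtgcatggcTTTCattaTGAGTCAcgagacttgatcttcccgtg
Rbpj, chr5:53963887-53963933, minus strand: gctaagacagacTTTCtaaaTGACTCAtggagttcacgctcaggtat
Il10, chr1:132907261-132907307, minus strand: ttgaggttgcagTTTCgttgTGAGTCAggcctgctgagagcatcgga
Igj, chr5:88937801-88937847, plus strand: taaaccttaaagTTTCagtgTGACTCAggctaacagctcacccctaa
Has3, chr8:109318923-109318969, minus strand: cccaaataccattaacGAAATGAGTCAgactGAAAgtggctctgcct
Another arrangement, with TTTC 6 bases before the core, was the other one that stood out in the scan of spacings given further on.
Hcls1, chr16:36941386-36941432, minus strand: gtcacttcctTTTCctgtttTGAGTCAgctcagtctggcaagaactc
Ebf1, chr11:44592675-44592721, minus strand: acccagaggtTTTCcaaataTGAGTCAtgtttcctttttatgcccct
The last set has a core and none of these sites, and includes some of the AP-1 peaks with the most tags.
Grap, chr11:61458213-61458259, plus strand: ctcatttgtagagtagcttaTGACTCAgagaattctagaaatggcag
Ezh2, chr6:47571198-47571244, plus strand: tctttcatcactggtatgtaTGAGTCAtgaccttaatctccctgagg
Gdi2, chr13:3372354-3372400, plus strand: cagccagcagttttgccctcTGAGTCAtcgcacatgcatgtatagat
Sik3, chr9:45981191-45981237, plus strand: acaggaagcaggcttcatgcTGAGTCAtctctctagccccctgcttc
Bach2, chr4:32337740-32337786, plus strand: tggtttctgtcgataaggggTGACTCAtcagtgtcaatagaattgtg

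The share of distal peaks with an AP-1 site was high for IRF4 and low for IRF8. It was 18.3% in the IRF4 72 h list (95% exact Clopper-Pearson interval 15.6% to 21.3%), 27.5% in the IRF4 48 h list (25.2% to 29.9%), 6.47% in the IRF8 GC list (5.22% to 7.92%), 6.89% in the IRF8 72 h list (5.35% to 8.69%) and 10.8% in the IRF8 48 h list (6.92% to 15.9%). Windows of the same length 1000 bp to either side of the peaks held such a site in 4.72%, 4.76%, 4.02%, 3.92% and 5.74%, in the same order of lists, and 3.06% of all windows of this length in the genome did. The intervals of the IRF4 lists lay far above their flanking windows, and those of the IRF8 lists lay closer to them.

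Fisher's exact test, two-sided and with Benjamini-Hochberg adjustment over 5 pairs of lists, separated the factors at each time. The odds ratio of IRF4 over IRF8 was 3.03 at 72 h (adjusted p = 3.31e-12, exact test) and 3.12 at 48 h (adjusted p = 1.59e-07). IRF4 72 h had the lower share of the 2 IRF4 lists, with an odds ratio of 0.592 over IRF4 48 h (adjusted p = 2.78e-06, exact test). Neither IRF8 72 h over IRF8 48 h (odds ratio 0.608, adjusted p = 0.0727) nor IRF8 GC over IRF8 72 h (odds ratio 0.936, adjusted p = 0.733) passed the exact test. The lists share places and are therefore not independent. The GC intervals were wide, with a median of 1145 bp against peaks of 500 bp in the LPS lists, and their centres are interval midpoints; caller and cell type cannot be told apart in any comparison with them. Over whole intervals the GC share exceeded that of IRF8 72 h by 10.1 percentage points (adjusted p = 5.39e-11, Fisher's exact test).

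**Figure D1:**
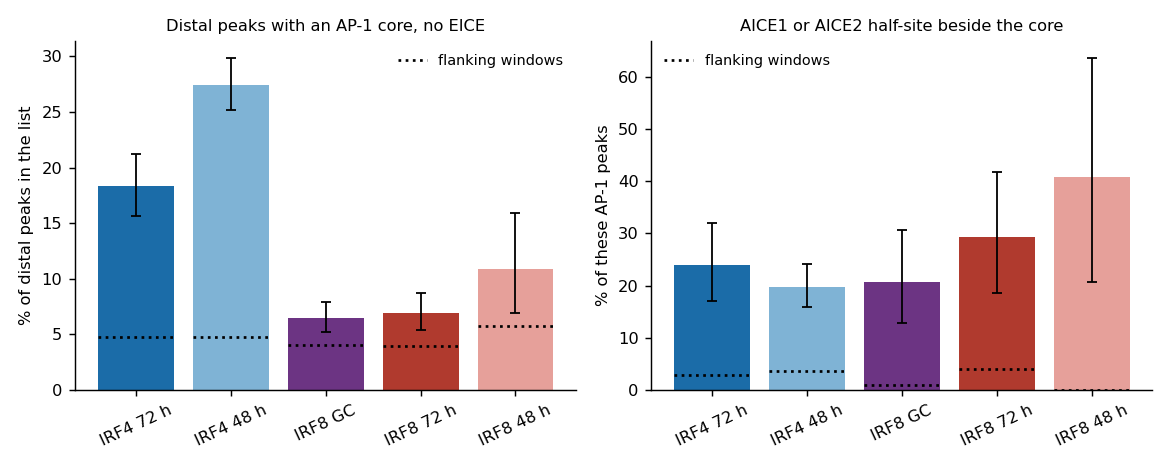
Left, share of distal peaks with an AP-1 core and no ETS-IRF element (percent of the distal peaks of each list); right, share of these AP-1 peaks with AICE1 or AICE2 beside the core (percent). Bars are the 5 lists, error bars 95% exact Clopper-Pearson intervals and dotted lines the same share in flanking windows. On the left the IRF4 bars reach 18.3% and 27.5% and the IRF8 bars 6.47% to 10.8%; on the right the intervals of all 5 lists overlap.

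The limits of the rule cut through a continuous range. In the same order of lists, 19, 28, 13, 7 and 3 AP-1 peaks lay between 1000 and 2500 bp from a TSS. A core that reached into the outermost 25 bp of the window was held by 19, 43, 18, 10 and 7 of them, and 12, 30, 9, 9 and 0 distal peaks without a core in the window had one in the next 25 bp outward. Of peaks within 1000 bp of a TSS, which the rule leaves out, a core without ETS-IRF element was held by 10 of 132, 36 of 144, 14 of 482, 8 of 103 and 1 of 23.

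Cores lay near the centre more than an even spread of a single core would give in the IRF4 lists and the IRF8 72 h list. The core nearest to the centre lay within 25 bp of it in 44.9% of AP-1 peaks of the IRF4 72 h list (36.5% to 53.6%), 53.8% of the IRF4 48 h list (48.8% to 58.9%), 29.9% of the IRF8 GC list (20.5% to 40.6%), 41.5% of the IRF8 72 h list (29.4% to 54.4%) and 45.5% of the IRF8 48 h list (24.4% to 67.8%). A single core placed evenly over the window would lie there in 26.2%, a value inside the intervals of the IRF8 GC and IRF8 48 h lists. In a peak with more than 1 core the nearest would lie there more often, which was not allowed for. The GC list, whose centres are midpoints of wide intervals, was the one nearest to an even spread. More than 1 core was held by 20, 47, 5, 6 and 1 AP-1 peaks, in the same order of lists.

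The bases beside the core were counted as well. On the strand with C in the middle of the core, A before the core together with T after it was found at 15.6% of the cores of the IRF4 72 h list and 17.4% of the IRF4 48 h list. It was found at 6.52% of IRF8 GC cores, 6.76% of IRF8 72 h cores and 3.85% of IRF8 48 h cores, against 5.95% of the 419017 cores of the genome. These are counts of 26 of 167, 78 of 448, 6 of 92, 5 of 74 and 1 of 26 cores, described without a test.

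AICE1 or AICE2 stood beside the core in a minority of AP-1 peaks of every list. They were found in 33 of 138 AP-1 peaks of the IRF4 72 h list (23.9%, interval 17.1% to 31.9%), 77 of 390 of the IRF4 48 h list (19.7%, 15.9% to 24.05%), 18 of 87 of the IRF8 GC list (20.7%, 12.7% to 30.7%), 19 of 65 of the IRF8 72 h list (29.2%, 18.6% to 41.8%) and 9 of 22 of the IRF8 48 h list (40.9%, 20.7% to 63.6%). Of all AP-1 cores of the genome 2.95% had one. Of flanking windows with a core and no ETS-IRF element, 2.82%, 3.70%, 0.926%, 4.05% and 0% had one. The genome value is per core, whereas a peak or window can hold more than 1 core. Every list thus lay above its own flanks. Between lists no pair passed Fisher's exact test, with adjusted p from 0.139 for IRF4 48 h against IRF8 48 h to 0.491.

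The counts of the AICE arrangements stood in a different order in the IRF4 and IRF8 lists. AICE1 was found in 12.3% of IRF4 72 h AP-1 peaks, 12.8% of IRF4 48 h, 4.60% of IRF8 GC, 7.69% of IRF8 72 h and 9.09% of IRF8 48 h, with counts of 17, 50, 4, 5 and 2; the genome's cores had 1.67%. AICE2 was found in 12.3%, 7.69%, 16.1%, 23.1% and 31.8% of the same lists, with counts of 17, 30, 14, 15 and 7; the genome's cores had 1.29%. AICE2 therefore outnumbered AICE1 in each IRF8 list, AICE1 outnumbered AICE2 in the IRF4 48 h list, and the counts were equal in the IRF4 72 h list. For AICE2 alone, a comparison chosen after seeing the data, IRF4 48 h was lower than IRF8 48 h (odds ratio 0.179, adjusted p = 0.00840, Fisher's exact test over 5 pairs) on 7 IRF8 peaks, whereas the other pairs had adjusted p from 0.158 to 0.411 by the exact test. For AICE1 alone every pair had an adjusted p of 1 by the exact test.

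A scan of 42 arrangements, spacers of 0 to 20 bases in both orientations, showed where these stood among all others. TTTC 6 bases before the core was found in 7.25% of IRF4 72 h AP-1 peaks (10 peaks), 6.92% of IRF4 48 h (27 peaks), 2.30% of IRF8 GC (2 peaks), 1.54% of IRF8 72 h (1 peak) and 0% of IRF8 48 h (0 of 22, interval up to 15.4%), against 1.31% of the genome's cores. The remaining 39 arrangements reached at most 4.35%, 2.82%, 5.75%, 4.62% and 9.09% in the same order of lists, where 9.09% of the short IRF8 48 h list is 2 peaks. In the IRF4 lists the 3 named arrangements were thus the 3 most frequent. The 6-base one was named because it stood out in this scan, so its rank here is no separate finding. In the IRF8 GC and IRF8 72 h lists AICE2 was the most frequent. At the 6-base spacing, 2 of 10 cores in the IRF4 72 h list and 12 of 28 in the IRF4 48 h list had C as the next base after TTTC, as in the Hcls1 sequence above.

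**Figure D2:**
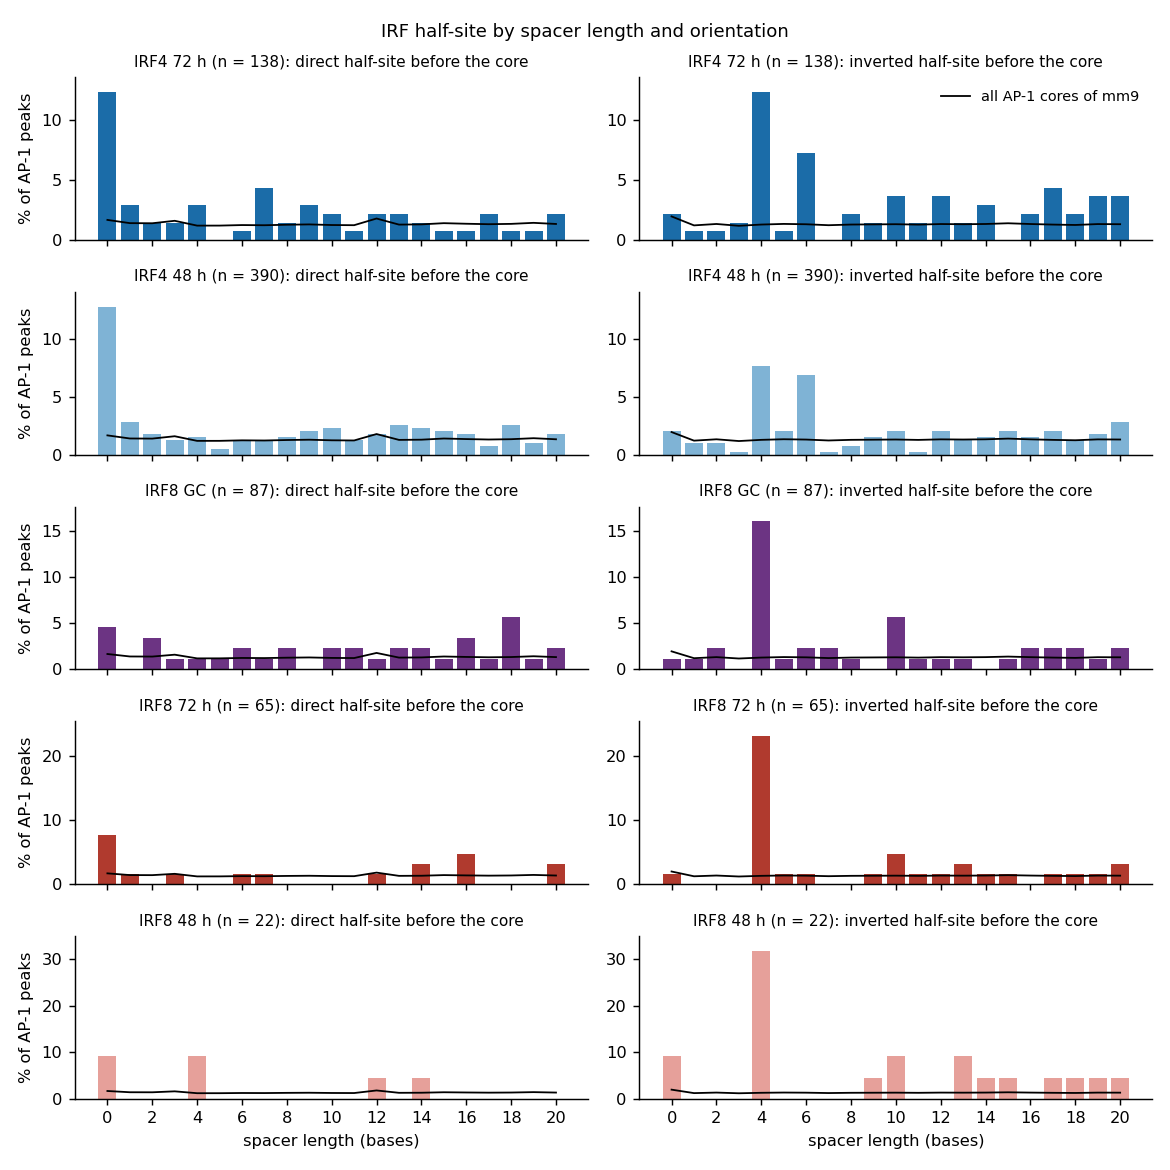
Percent of the AP-1 peaks of each list (rows) with a GAAA site at each spacer length in bases, in direct orientation (left; 0 bases is AICE1) and inverted orientation (right; 4 bases is AICE2). Bars are the lists and the line is the share over all AP-1 cores of mm9. Bars at inverted 4 bases reach 7.69% to 31.8%, and bars at inverted 6 bases reach 7.25% and 6.92% in the IRF4 lists.

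Other sites in the windows of AP-1 peaks were counted beside those of other distal peaks, without a test. A PU.1-type ETS site (GAGGAAG) was found in 10.1% of IRF4 72 h AP-1 peaks (5.66% to 16.4%), against 17.5% of other distal peaks (14.6% to 20.8%) and 6.84% of flanking windows of that list. In the IRF4 48 h list it was found in 11.8% (8.77% to 15.4%) against 16.1% (13.9% to 18.5%). In the IRF8 lists the order was 19.5% against 13.0% for GC, 15.4% against 14.6% for 72 h and 9.09% against 11.6% for 48 h, with overlapping intervals. By the rule AP-1 peaks hold no ETS-IRF element, whereas other distal peaks may hold one. GAGGAAG contains the GGAA of that element, so the rule itself can lower its share in AP-1 peaks. The RUNX site TGTGGT was held by 22.5% of IRF4 72 h AP-1 peaks against 22.1% of other distal peaks and 15.7% of flanking windows, and by 22.1% against 24.9% in the IRF4 48 h list. The octamer ATTTGCAT was held by 7.69% of IRF8 72 h AP-1 peaks (2.54% to 17.0%, 5 peaks) against 1.48% of other distal peaks (0.790% to 2.52%) and 1.27% of its flanking windows, with intervals that barely miss each other. It was held by 4.35% against 4.06% in IRF4 72 h, 5.13% against 4.37% in IRF4 48 h and 2.30% against 1.91% in IRF8 GC. In IRF8 48 h it was 4.55% (1 peak) against 0.552%. The intervals overlap in these lists. The values named here were picked from sites counted in all 5 lists. A kappaB site was held by 7.25% of IRF4 72 h AP-1 peaks (3.53% to 12.9%) against 3.08% (1.87% to 4.77%) and 1.59% of flanking windows. GAAA, 2 bases and GAAA, the interferon response core, was held by 8.05% of IRF8 GC AP-1 peaks (3.30% to 15.9%) against 15.3% (13.3% to 17.4%) and 3.01% of flanking windows. The intervals of the kappaB site and of the interferon response core overlap.

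AP-1 peaks had ordinary heights for their lists. The median AP-1 peak had 31.9 normalised tags in the IRF4 72 h list, 38.3 in IRF4 48 h, 32.6 in IRF8 72 h and 27.4 in IRF8 48 h, where a normalised tag is 1 tag per 10000000 of the library. Other distal peaks had medians of 29.2, 38.3, 32.6 and 27.4. The tallest peaks of each LPS list were not AP-1 peaks. The highest AP-1 values were 111.5, 247.3, 94.6 and 80.0, against 1540, 1596, 1762 and 1268 for other distal peaks. In every LPS list this distal maximum lay at the same place, nearest to Gm5614. Whether the tags there reflect binding of IRF4 or IRF8 was not tested. AP-1 peaks with AICE1 or AICE2 had medians of 37.2, 38.3, 45.7 and 27.4 normalised tags, against 31.9, 38.3, 32.6 and 27.4 for those without.

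The 2 tallest AP-1 peaks were tallest in the IRF4 libraries. The Grap peak, upstream of a gene for an adaptor protein of lymphocyte receptor signalling, had 85.0 normalised tags in IRF4 72 h (exact Poisson interval 58.1 to 120.0), 247.3 in IRF4 48 h (197.2 to 306.2) and 32.6 in IRF8 72 h; it was in the GC list and not in the IRF8 48 h list. The Enpp6 peak, an AICE1 site 45.4 kb upstream of a choline phosphodiesterase gene, had 111.5 in IRF4 72 h, 185.5 in IRF4 48 h and 48.9 in IRF8 72 h, again in the GC list and not in IRF8 48 h. Both had more tags in IRF4 72 h than in IRF8 72 h, a difference that did not pass the exact test over all places shared at 72 h.

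Other tall AP-1 peaks, at places with a peak in all 4 LPS lists, had different profiles. That of Gdi2 was the most even of the 3 given here. At each of these 3 places the peak met the AP-1 rule in some of the 4 lists but not in all. The Gdi2 peak, 164.9 kb upstream of a gene for a regulator of RAB proteins, had 95.6 normalised tags in IRF4 72 h, 97.1 in IRF4 48 h, 94.6 in IRF8 72 h and 80.0 in IRF8 48 h. The Recql5 peak, in an intron of a DNA helicase gene, had 87.6, 58.9, 88.1 and 29.7 in the same 4 libraries. The Ezh2 peak, 25.95 kb upstream of the gene for the histone H3 methyltransferase of Polycomb complexes, had 100.9, 100.1, 52.2 and 29.7. These 3 peaks have a core without AICE1 or AICE2, and none of them was in the GC list.

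**Figure D3:**
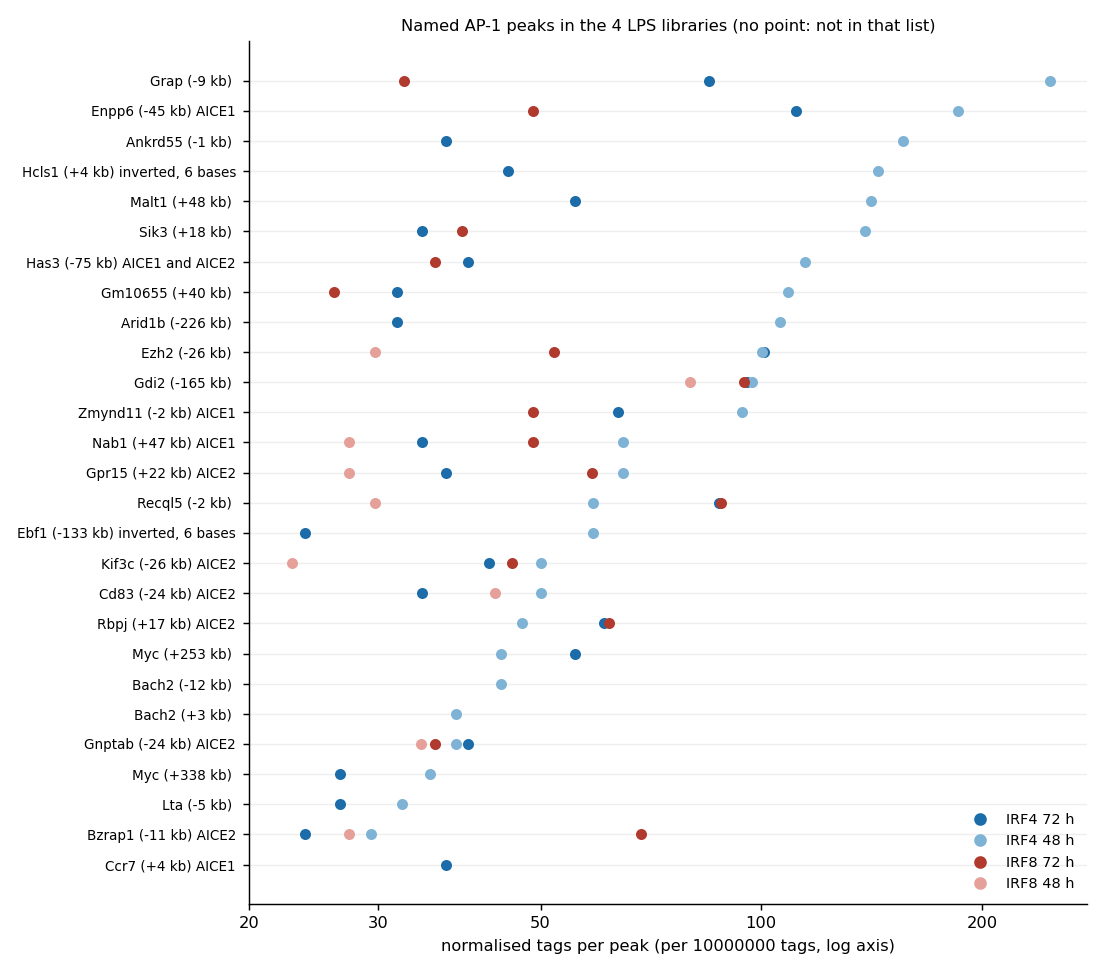
Normalised tags (per 10000000 tags, log axis) of the named AP-1 peaks of the LPS lists in the 4 LPS libraries, with the distance in kb from the nearest protein-coding TSS (negative is upstream) and the arrangement of the GAAA site; a missing point means that the place is not in that list. IRF4 48 h points lie right of IRF4 72 h points at Grap (247.3 against 85.0 at 72 h) and Ankrd55 (156.0 against 37.2 at 72 h), while all 4 points of Gdi2 lie between 80.0 and 97.1.

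Over time, IRF4 tags at AP-1 places were lower at 72 h than at 48 h. A place in both lists of a pair counted as an AP-1 place when its peak in at least 1 of the 2 lists was an AP-1 peak. Of 536 places called in both IRF4 lists, 118 were AP-1 places, and 107 of these were lower and 11 higher at 72 h. At 96 of the 118 the peak was an AP-1 peak in both lists. The log2 ratio of 72 h over 48 h had a median of -0.68 at these AP-1 places (interval of the median over places -0.77 to -0.54), a ratio of 0.624. Other distal shared places had a median of -0.32 (-0.39 to -0.29) over 364 places, and all 536 had -0.39. The intervals of AP-1 places and other distal places do not overlap, although places are not replicates.

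An exact binomial test on whole tags at each place, with the library totals as the null and adjustment over all 536 places, called 14 places lower at 72 h (2.61% of the 536) and 0 higher (0%, with 2 at an unadjusted p under 0.05). Of the 14, 11 were AP-1 places (of 118) and 2 were other distal places (of 364); 0 AP-1 places were called higher, none at an unadjusted p under 0.05 either. With the median ratio of all shared places as the null, which moves the scale by 0.39 on the log2 scale, 3 AP-1 places were called lower and their median was -0.29. The Grap peak was called lower with a log2 ratio of -1.54 (adjusted p = 1.72e-05 by the exact test). Places in the IRF4 48 h list alone have no value at 72 h and are not in these counts.

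The AP-1 places called lower with the largest folds lie beside genes of varied function. Next to Ankrd55, a gene for an ankyrin repeat protein, the peak had 37.2 normalised tags at 72 h (20.3 to 62.4), against 156.0 at 48 h (116.9 to 204.1), with 4 cores in its window. In an intron of Sik3, a salt-inducible kinase gene, it had 34.5 at 72 h (18.4 to 59.0) against 138.4 at 48 h (101.7 to 184.0). In an intron of Hcls1, the gene for a cortactin-like substrate of B cell receptor signalling, it had 45.1 at 72 h (26.3 to 72.3) against 144.2 at 48 h (106.7 to 190.7), and this is a site with TTTC 6 bases before the core. The intervals of the 2 times do not overlap at any of these 3 places. The other 2 named by the rule were Gm10655, with 31.9 against 108.9, and Arid1b, a subunit gene of the BAF chromatin remodeller, with 31.9 against 106.0.

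Malt1, the paracaspase gene of antigen receptor signalling to NF-κB, had an AP-1 peak 48.3 kb from its start with 55.8 normalised tags at 72 h against 141.3 at 48 h. Its adjusted p was 0.0149 by the exact test, so it passed as well. The Has3 peak, which lies in an intron of Tmco7 and joins both AICE arrangements, had 39.8 at 72 h against 114.8 at 48 h (adjusted p = 0.0166, exact test). Gdi2 and Ezh2 stood apart from these, with log2 ratios of -0.02 and 0.01.

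By arrangement the lowering at 72 h had different medians. The 11 places with TTTC 6 bases before the core had a median log2 ratio of -1.07 (-1.30 to -0.61), all 11 lower. The 16 AICE1 places had -0.71 (-0.91 to -0.50), all 16 lower. The 16 AICE2 places had -0.41 (-0.89 to 0.06), 12 lower and 4 higher. These intervals overlap, and the differences between arrangements were not tested. Places without AICE1 or AICE2 had -0.70 over 87 places.

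**Figure D4:**
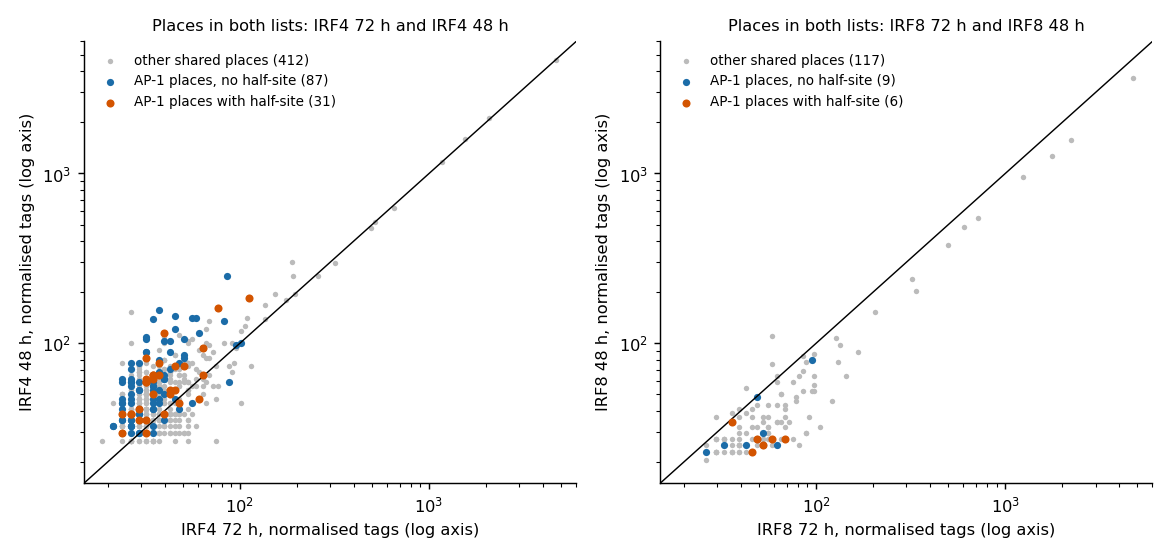
Normalised tags at places called in both lists of a factor, 72 h (horizontal, log axis) against 48 h (vertical, log axis), for IRF4 (left) and IRF8 (right); the line marks equal values. Points are places without an AP-1 peak (grey), AP-1 places with AICE1 or AICE2 (orange) and AP-1 places without (blue). On the left 107 of 118 AP-1 points lie above the line, lower at 72 h, and on the right all 15 lie below it.

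For IRF8 the direction was the opposite. All 15 AP-1 places among the 138 in both IRF8 lists were higher at 72 h than at 48 h, with a median log2 ratio of 0.84 (0.24 to 1.05), against 0.61 over 101 other distal shared places. The exact binomial test called 17 of the 138 places higher (12.3%) and 0 lower (0%, with 1 at an unadjusted p under 0.05). None of the 15 AP-1 places was called by that test, and 3 were higher at an unadjusted p under 0.05. All shared places had a median of 0.59, so the AP-1 places went in the same direction as the rest of the list. With the median ratio of all shared places as the null, the median of the 15 AP-1 places became 0.25. With a window of 50 bp it was 0.61 over 8 places.

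Between the factors, AP-1 places had more IRF4 than IRF8 tags at 48 h, as did most other distal shared places. Of 122 places in both 48 h lists, 16 were AP-1 places and all 16 were higher in IRF4. Their median log2 ratio of IRF4 over IRF8 was 0.98 (0.28 to 1.52), against 0.45 over all 122. Other distal shared places also had 0.45 (0.28 to 0.63), with 71 of 91 higher and 20 lower in IRF4. The intervals of AP-1 places and other distal places overlap. The exact test called 21 of the 122 higher in IRF4 (17.2%) and 1 lower (0.82%); of the AP-1 places 5 were called higher and 0 lower, none of them lower at an unadjusted p under 0.05. The count of 5 became 3 over single-copy places, 3 with a window of 50 bp and 2 with the median ratio as the null. With that null the median of the AP-1 places became 0.53. The share of tags in peaks was 0.82% in IRF4 48 h and 0.18% in IRF8 48 h. A difference between the factors cannot be told apart from such a difference between single libraries.

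The called places included Oxsr1, Ezh2, A4galt and Lass6. The Oxsr1 peak, an AICE1 site in an intron and in repeated sequence, had 161.9 normalised tags in IRF4 48 h against 25.1 in IRF8 48 h; it and Lass6 were named after their values were seen. A4galt, whose product makes the CD77 glycolipid, had 85.4 in IRF4 48 h against 29.7 in IRF8 48 h, a log2 ratio of 1.52. The 5 shared AICE2 places were higher in IRF4 by log2 ratios of 0.10 at Bzrap1, 0.16 at Gnptab, 0.20 at Cd83, 1.13 at Kif3c and 1.24 at Gpr15, and none of the 5 was called.

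At 72 h the 31 shared AP-1 places had a median log2 ratio of IRF4 over IRF8 of 0.07 (-0.13 to 0.29), with 17 higher and 14 lower. The exact test called 0 of the 258 shared places higher (0%) and 1 lower (0.388%), and no AP-1 place; at an unadjusted p under 0.05, 3 AP-1 places were higher and 1 lower in IRF4.

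The share of AP-1 peaks found again in another list depended on the pair of lists. Of the IRF4 48 h AP-1 peaks, 27.7% (23.3% to 32.4%) overlapped an IRF4 72 h peak, against 36.3% (33.4% to 39.3%) of the other distal peaks of that list. For overlap with IRF8 72 h these shares were 8.72% (6.11% to 11.97%) against 21.8% (19.4% to 24.5%), and with IRF8 48 h 3.33% (1.79% to 5.63%) against 9.13% (7.44% to 11.1%). For each of these 3 LPS lists the AP-1 share was the smaller one, and the intervals do not overlap. The difference itself was not tested. Peaks in repeated sequence were kept in both classes, here and for the pairs below. For other distal peaks the overlap over single-copy peaks alone was not computed, so the part of repeats in these differences is not known.

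For several other pairs the AP-1 share was the larger one. Of IRF4 72 h AP-1 peaks 76.8% (68.9% to 83.6%) were in the IRF4 48 h list, against 60.9% (56.9% to 64.8%) of other distal peaks. The same list went the other way with IRF8 72 h, at 21.01% (14.5% to 28.8%) against 31.01% (27.4% to 34.8%), and with IRF8 48 h, at 8.70% against 12.3%, with overlapping intervals in both. Of IRF8 72 h AP-1 peaks 52.3% (39.5% to 64.9%) were in the IRF4 48 h list, against 25.5% (22.6% to 28.5%), and 43.1% (30.8% to 56.0%) were in the IRF4 72 h list, against 21.8% (19.2% to 24.7%). Of IRF8 GC AP-1 peaks 29.9% (20.5% to 40.6%) were in the IRF4 48 h list, against 11.5% (9.75% to 13.3%). In the IRF8 72 h list, made with the same antibody as the GC list, the share of GC AP-1 peaks was 16.1% (9.09% to 25.5%) against 11.9% (10.1% to 13.8%) of other distal peaks.

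**Figure D5:**
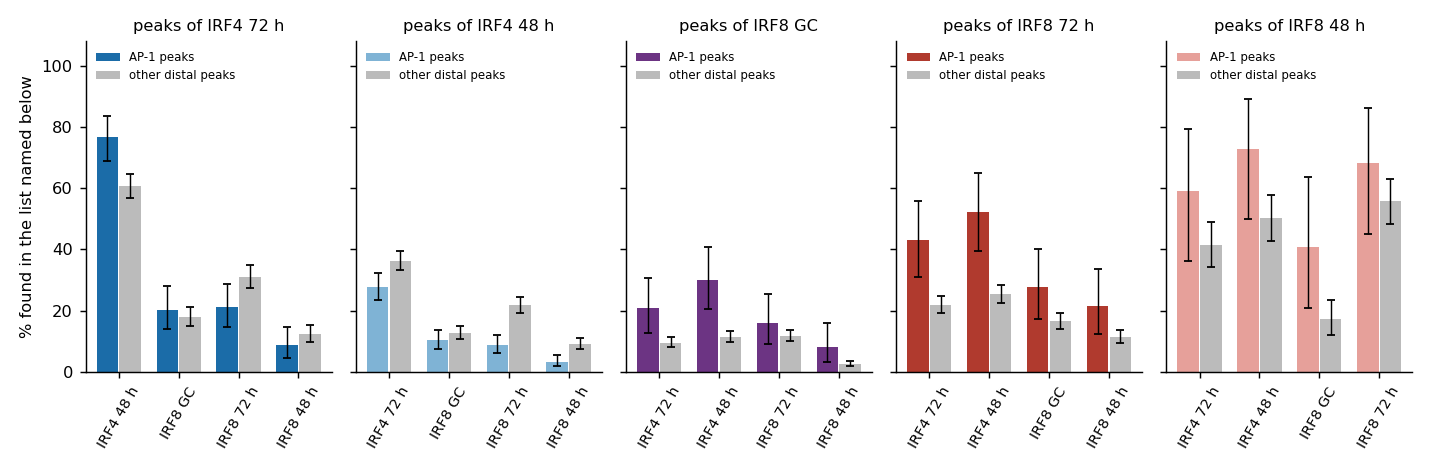
Percent of the AP-1 peaks (coloured) and of the other distal peaks (grey) of each list that overlap a peak of the list named below by at least 1 bp, with 95% exact Clopper-Pearson intervals. In the IRF4 48 h panel the AP-1 bars lie below the grey bars (27.7% against 36.3% for IRF4 72 h), and in the IRF8 GC and IRF8 72 h panels they lie above them for the IRF4 lists (29.9% against 11.5%, and 52.3% against 25.5%, for IRF4 48 h).

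Overlap with IRF8 peaks was counted for each arrangement in the IRF4 lists; differences between arrangements were not tested. Of the 30 AICE2 peaks of the IRF4 48 h list, 11 overlapped an IRF8 peak of either LPS list (36.7%, 19.9% to 56.1%) and 10 overlapped a GC peak (33.3%, 17.3% to 52.8%). Of its 50 AICE1 peaks, 6 overlapped an IRF8 LPS peak (12%, 4.53% to 24.3%) and 1 a GC peak (2.00%, 0.0506% to 10.6%). Of its 27 peaks with TTTC at 6 bases, 0 overlapped an IRF8 LPS peak (interval up to 12.8%) and 1 a GC peak. Of its 288 AP-1 peaks with none of these, 21 overlapped an IRF8 LPS peak (7.29%, 4.57% to 10.9%) and 28 a GC peak (9.72%). The intervals of AICE2 and AICE1 overlap for the LPS lists and do not overlap for the GC list.

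In the IRF4 72 h list the counts stood in the same order of AICE2 over AICE1. Of its 17 AICE2 peaks 10 overlapped an IRF8 LPS peak and 9 a GC peak, of its 17 AICE1 peaks 5 and 2, and of its 95 AP-1 peaks with none of the 3 arrangements 16 and 16. From the IRF8 LPS lists the order was the reverse, on few peaks. An IRF4 peak was overlapped by 8 of 14 AICE2 and 2 of 4 AICE1 peaks of the GC list, 12 of 15 AICE2 and 5 of 5 AICE1 peaks of the IRF8 72 h list, and 5 of 7 AICE2 and 2 of 2 AICE1 peaks of the IRF8 48 h list. Many of these places are the same in both IRF4 lists, so the 2 lists do not count as repeats.

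Over the 533 places, 253 had a peak in the IRF4 48 h list alone, 77 in both IRF4 lists alone, 55 in the GC list alone, 26 in IRF4 72 h alone, 24 in IRF8 72 h alone and 3 in IRF8 48 h alone. A peak in all 5 lists was found at 5 places. At 6 places the peak was a single-copy AP-1 peak in all 4 LPS lists, among them Nab1, Gpr15 and Kif3c.

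These 3 carry an AICE. Nab1, the gene for a corepressor of EGR factors, had an AICE1 peak with 34.5 normalised tags in IRF4 72 h, 64.8 in IRF4 48 h, 48.9 in IRF8 72 h and 27.4 in IRF8 48 h. Gpr15, a gut homing receptor gene, had an AICE2 peak with 37.2, 64.8, 58.7 and 27.4 in the same libraries. Kif3c, a kinesin gene, had the peak with AICE2 on both sides of the core, with 42.5, 50, 45.7 and 22.9, and it was in the GC list. Each of these 3 had the fewest tags in IRF8 48 h, the library with the smallest share of tags in peaks.

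AP-1 peaks near genes of B cell biology were counted by gene list. Within 50000 bp of the nearest TSS an AP-1 peak of any list was found for 4 of 36 B cell activation genes (Cd83, Il10, Tnf and Lta), 2 of 20 B cell identity genes (Bach2 and Ccr7), 1 of 14 annotated plasma cell genes (Igj), 1 of 23 genes for AP-1 and related leucine zipper factors (Bach2) and 0 of 9 IRF genes. These are 11.1%, 10%, 7.14%, 4.35% and 0% of the 5 gene lists, against 1.79% of all 22238 protein-coding gene names, or 399 genes. A distal peak of any kind was found for 16, 9, 5, 6 and 3 genes of these lists, in the same order, which is 44.4%, 45%, 35.7%, 26.1% and 33.3%, against 9.34% of all protein-coding genes. All 5 gene lists thus had larger shares than all genes for distal peaks of any kind, and the differences were not tested.

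Of these 7 genes, 3 had an AICE2 site. Cd83, a surface marker of activated B cells, had an AICE2 peak 23.8 kb upstream with 34.5 normalised tags in IRF4 72 h, 50 in IRF4 48 h and 43.4 in IRF8 48 h; it was in the GC list and not in the IRF8 72 h list. The peaks of Il10, which encodes a suppressive cytokine, and of Igj, which encodes the J chain that joins IgM and IgA multimers, lay 9.05 kb upstream and 17.8 kb downstream of the start. Both have AICE2 and both were in the GC list alone. Other AICE2 peaks of the GC list lay at Ptp4a2, 1110003E01Rik and Dcun1d4.

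Ccr7, the chemokine receptor that guides B cells to T cell zones, had an intronic AICE1 peak with 37.2 normalised tags in IRF4 72 h and in no other list. Bach2, a leucine zipper repressor that delays plasma cell formation, had 2 intronic AP-1 peaks without AICE in the IRF4 48 h list, with 44.2 and 38.3 tags. Of these only the one 3.09 kb from the start was also in the GC list. Lta, which encodes lymphotoxin alpha, had a peak with 26.6 in IRF4 72 h and 32.4 in IRF4 48 h. Ebf1, a B lineage factor gene, had an intronic peak 132.9 kb from the nearest start with TTTC 6 bases before the core, with 23.9 in IRF4 72 h and 58.9 in IRF4 48 h. Myc had 2 AP-1 peaks far downstream, at 252.7 kb with 55.8 in IRF4 72 h and 44.2 in IRF4 48 h, and at 338.4 kb with 26.6 in IRF4 72 h and 35.3 in IRF4 48 h.

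The AICE2 peaks with the most tags in the IRF8 lists were also in the IRF4 lists. Bzrap1 had 23.9 normalised tags in IRF4 72 h, 29.4 in IRF4 48 h, 68.5 in IRF8 72 h and 27.4 in IRF8 48 h, and its difference at 72 h did not pass the exact test (adjusted p = 0.317). Rbpj, the gene for the DNA-binding partner of Notch, had 61.1 in IRF4 72 h, 47.1 in IRF4 48 h and 62.0 in IRF8 72 h, in an intron. Gnptab, a lysosomal enzyme sorting gene, had 39.8 in IRF4 72 h, 38.3 in IRF4 48 h, 35.9 in IRF8 72 h and 34.3 in IRF8 48 h, and was in the GC list. Of the distal peaks ranked by tags and split into 4 equal parts, the highest part held 14 and the lowest 2 of the 33 AICE peaks of the IRF4 72 h list. These numbers were 26 and 21 of 77 in the IRF4 48 h list, 11 and 1 of 19 in the IRF8 72 h list, and 1 and 2 of 9 in the IRF8 48 h list.

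The location of AP-1 peaks is given beside that of other distal peaks, without a test. Introns held 45.7%, 52.6%, 51.7%, 43.1% and 40.9% of them in the same order of lists as above, against 47.9%, 47.8%, 46.5%, 44.8% and 43.1% of other distal peaks. The nearest TSS was at a median of 21.7, 17.9, 13.8, 21.8 and 23.5 kb, against 18.1, 19.8, 17.9, 20.7 and 19.7 kb. In repeated sequence, where the median 24-base word of the window occurs more than once in the genome, lay 3, 6, 2, 3 and 2 AP-1 peaks.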

How the data were processed

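The 4 LPS lists were called by the authors with HOMER findPeaks, per the file headers, with peaks of 500 bp, a false discovery rate of 0.001 and a fold of at least 4 over the local 10000 bp. The deposited signal of a peak is its tag count normalised to 10000000 tags, per the file headers. The deposited score, fold ratios, p-values and focus ratio (a fraction) come from the authors' caller and were not used in a test. The deposited GC list gives positions only, called with MACS per the labels' design text. BWA and Bowtie2 are named in the submitters' processing notes; which program aligned which library is not given in the sources used here. The IRF8 72 h header marks its tags as a second replicate, and whether libraries were merged is not given either. No control library was analysed here.

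Whole tags were recovered from the header totals, with a largest deviation of 0.0217 tags. Sequence and genes were taken from NCBIM37 (mm9) and GENCODE M1; 40 unplaced intervals were left out. Motifs were matched exactly on both strands. Flanking windows lay 1000 bp to either side. Shares have 95% exact Clopper-Pearson intervals and single peaks exact Poisson intervals, both covering counting error only. Lists were compared with Fisher's exact test over 5 pairs. Places were called shared when peaks overlapped by at least 1 bp and each was the other's best match, and tags there were compared with exact binomial tests with Benjamini-Hochberg adjustment at 0.05. AP-1 places had an AP-1 peak in at least 1 of the 2 lists. Both lists had one at 96 of 118 places for IRF4 over time and 14 of 15 for IRF8 over time. Between the factors these counts were 26 of 31 at 72 h and 13 of 16 at 48 h. The interval of a median comes from binomial order statistics. Named peaks were single-copy members: the 5 with the most tags in each LPS list, the 3 with AICE and the most tags, the 5 called with the largest folds, up to 5 in all 4 LPS lists, up to 8 GC peaks over an LPS member, up to 5 GC AICE peaks and up to 8 nearest to a listed gene. Some of these are not reported here. The members and gene lists were chosen with earlier results of these data known. Alternatives changed the window, TSS limit, copy number, tag minimum, overlap, null ratio and GAAA spacing. The statistics were checked on made-up counts. Python 3.11.15, numpy 2.4.6, scipy 1.17.1, numba 0.67.0 and matplotlib 3.10.9 were used.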

Additional observations from a re-analysis of the deposited data

Results flagged for a closer look

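The change of AP-1 places from one time to the other differed in sign between the factors. At places in both lists of a factor, the log2 ratio of 72 h over 48 h had a median of -0.68 for IRF4, with 107 of 118 AP-1 places lower, and 0.84 for IRF8, with 15 of 15 higher. The difference between the factors was not tested. All shared places moved in the same directions, with medians of -0.39 for IRF4 and 0.59 for IRF8, and each factor had 1 library per time. The share of tags in peaks also moved this way. It was 0.45% in IRF4 72 h and 0.82% in IRF4 48 h, and 0.52% in IRF8 72 h and 0.18% in IRF8 48 h. A time effect cannot be told apart from such a difference between single libraries.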

How the results depend on the processing

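No paired analysis was possible because each group was 1 library without a shared replicate number. Results kept direction and call in 141 settings. The share of AP-1 peaks, GC minus IRF8 72 h, turned to 10.1 percentage points over whole intervals, which are longer in the GC list, and to 0.163 for peaks not in the other list; IRF8 72 h minus 48 h turned to 1.94 for peaks with at least 32.6 normalised tags. AICE shares, none of which passed between lists in the main comparison, changed as follows, turning in direction except where a p is given. IRF4 72 h minus 48 h became -0.454 with a 50 bp window, -7.65 for peaks not in the other list and -0.502 for AICE1 alone. GC minus IRF8 72 h became 0.509 with a 50 bp window, 0.760 for TTTC at 6 bases and -14.1 over whole intervals (adjusted p = 0.00880, Fisher's exact test). IRF4 minus IRF8 at 72 h became 4.84 for peaks not in the other list, 9.19 for GAAA within 10 bases, 4.63 for AICE1 alone and 5.71 for TTTC at 6 bases. IRF4 minus IRF8 at 48 h became 3.73 for AICE1 alone, 6.92 for TTTC at 6 bases and -24.1 for AICE2 alone (adjusted p = 0.00840, exact test). IRF8 72 h minus 48 h became 1.54 for TTTC at 6 bases. With the median ratio as the null, the IRF4 72 h over 48 h median became -0.29 and its lower calls 3 of 118, and IRF4 over IRF8 at 48 h had 2 higher calls; single-copy places gave 3 and a 50 bp window 3. The settings on peaks not in the other list, AICE2 alone and TTTC at 6 bases were chosen after seeing the data; the cause of these changes was not tested.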
